A study of Mus musculus with 3 samples.

Results

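The comparison was between mouse LSK cells that lack both p53 and the transcription factor Mef, called the double knockout or DKO, and wild-type (WT) LSK cells. LSK cells are the lineage-marker-negative, Sca-1-positive, Kit-positive fraction of bone marrow, which contains the haematopoietic stem cells together with multipotent progenitors. Expression was read on Affymetrix arrays, 1 for each genotype, so the comparison used 2 of the 3 arrays in the study. The third array, from LSK cells that lack p53 but keep Mef (p53 KO), is shown beside them. Loss of p53 was thus shared by the DKO and p53 KO cells, and the WT cells carried neither loss. The sources used here do not state alleles, strain, sex, age or how many mice or sorts stand behind an array. Each named gene was represented by its brightest single-gene probe set, and 12225 of 18194 genes were measured, which means that they reached a floor of 110.4 on the DKO or the WT array. Signals are linear intensities and are given in the order WT, p53 KO, DKO. A difference is the log2 signal on the array labelled DKO minus that on the WT array, with signals under the floor raised to it. Where either array was under the floor, the difference is a bound and is written as at least. With 1 array per genotype no difference has an error or a test, and higher and lower describe these arrays, not the genotypes.

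p53 is the transcription factor that halts the cell cycle or starts cell death under stress, and in blood-forming cells it also holds stem cells in quiescence. Mef, encoded by Elf4, is an ETS family activator that is known to move stem cells out of quiescence. Blood progenitors choose between fates through sets of transcription factors. Gata1 and Klf1 drive red cell formation, C/EBP factors and Spi1 drive the granulocyte and monocyte lines, and Ikaros family and E protein factors open the lymphoid programme.

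The targeted gene gave little check of the label. Elf4 signals were 57.4, 182 and 151, so its signal on WT, under the floor, was no higher than on the array labelled DKO. It is unknown from the sources used here if this probe set reads the deleted stretch, so it checks nothing, and every direction below rests on the labels. p53 expression itself was left out. Of the genes that define the sort or its exclusions, Kit, the stem cell factor receptor, had signals of 4996, 2522 and 4873, and Ptprc, the pan-leukocyte marker CD45, 6925, 13914 and 9072. Cd8a, a T cell marker commonly used for lineage exclusion, had signals of 254, 284 and 34.8. Cd3e, Cd4 and Itgam, further markers of that kind, were under the floor on the WT and DKO arrays. Genes of mature cells were nevertheless bright in these lineage-negative sorts, such as the neutrophil gene S100a8 at 32242, 40616 and 25471 and the red cell gene Ermap at 19247, 16391 and 2970.3. Ly6a, which encodes Sca-1, was not analysed here. The median over all 45101 probe sets was 98.0 for WT, 105 for p53 KO and 129 for DKO.

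Of the measured genes, 657 (5.37%) were higher on the DKO array by 2-fold or more, 390 (3.19%) were lower by as much, and the median difference was 0.08. Most genes lay close together, with 65.9% within 0.5 of 0 on the log2 scale. Of the genes past 2-fold, 137 higher and 42 lower ones were bounds, whose full gaps are not known. As measured with this floor, the larger gaps were more often downward: 22 genes were higher by 4-fold or more and 55 lower by as much. The split moved with scaling, since the higher genes made up 62.8% of these calls as deposited, 48.9% after quantile normalization, 51.3% after subtraction of the all-gene median and 46.8% after cyclic loess. With floors at the 25th and 75th percentile that share was 71.1% and 46.4%, and with a pseudocount of 32 and no floor 69.3%. The median difference also moved with brightness. It was 0.24 over 4646 genes whose brighter array lay between the floor and the 75th percentile of signals, 0.04 over 4656 genes from there to 2000, and -0.11 over 2923 genes above 2000. A dim list is therefore read against a background that was itself higher, and a bright list against one slightly lower. A second probe set pointed the same way for 253 of 283 higher genes and 128 of 167 lower genes that had one, against 66.9% of 5302 genes in all. That second probe set was itself past 2-fold for only 69 of the higher genes (24.4%) and 49 of the lower ones (29.3%). Over all 5302 genes it was at least 2-fold higher for 4.66% and 2-fold lower for 2.64%.

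Genes were described in 87 lists and 41 families, which share some genes. A list is called higher or lower where its median lay at least 0.25 from 0 and at least 2 in 3 of its measured members shared that sign. By this rule 35 were higher, 23 lower and 69 neither, and 1 had too few measured members. Over 9 other settings of scaling, floor, probe set choice and measured-gene rule, 12 of the 23 lower lists and 8 of the 35 higher lists kept their call in every setting. Red cell, mitochondrial, aminoacyl-tRNA synthetase, nuclear pore and mitosis genes make up most of the former. Granule, early lymphoid, stem cell, adhesion and cytokine receptor genes are among the latter. Of the 69 that were neither, 23 were called in at least 1 setting. Shares of a list at least 2-fold higher or lower are given in parentheses and are read against 5.37% and 3.19% of all measured genes. Counts of members by sign are read against 57.6% higher and 42.4% lower over all measured genes. Between the floor and the 75th percentile 3341 of 4646 genes were higher, and above 2000, 1742 of 2923 were lower. A dim list can thus come close to the rule as higher with no more than this background.

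**Figure D1:**
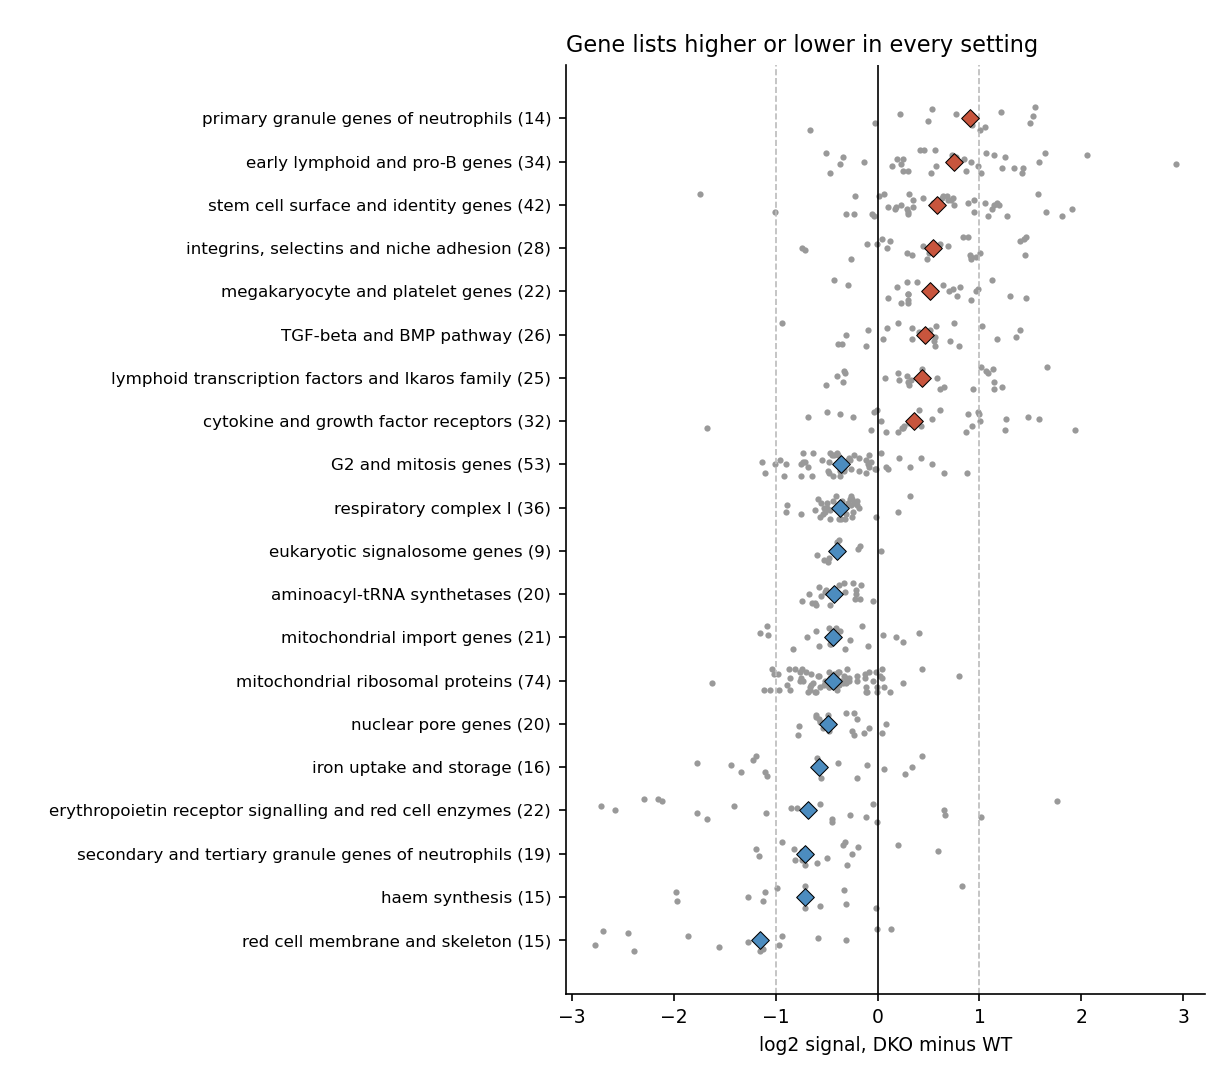
Log2 signal on the DKO array minus that on the WT array for the 20 gene lists that kept their call in every setting. Grey points are measured genes, diamonds are list medians, dashed lines mark 2-fold and the number of measured genes follows each name. Medians run from -1.15 for red cell membrane genes to 0.91 for primary granule genes.

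Red cell genes were lower on the array labelled DKO. The 4 lists of membrane and skeleton, haem synthesis, iron handling, and erythropoietin signalling with red cell enzymes held 68 measured genes between them. Of these, 30 (44.1%) were at least 2-fold lower, against 3.19% of all measured genes, and 2 were at least 2-fold higher. The summed signal of the membrane list was 59457, 88242 and 17564 and that of the haem list 54454, 106052 and 32733. The p53 KO array shares the WT array in its own comparison, and there 47 of the 68 genes were above WT and 21 below. In bulk RNA, fewer cells of a type and less RNA per cell cannot be told apart, and this holds for each cell type below.

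Red cell promoters are known for 2 short motifs, GATAA, which GATA factors bind, and CACCC, which Klf1 and its relatives bind. The 150 bases before the start of 5 of the lower genes are shown, chosen because both motifs occur in them, 5′ to 3′ on the strand of the gene, from RefSeq promoters of assembly GRCm38.p6. Capitals mark GATAA and CACCC or, where the motif lies on the other strand, TTATC and GGGTG.
Klf1 (chr8:84901832-84901981, plus strand): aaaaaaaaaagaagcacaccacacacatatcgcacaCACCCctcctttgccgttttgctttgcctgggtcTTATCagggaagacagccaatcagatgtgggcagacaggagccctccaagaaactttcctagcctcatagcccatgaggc
Ermap (chr4:119189996-119190145, minus strand): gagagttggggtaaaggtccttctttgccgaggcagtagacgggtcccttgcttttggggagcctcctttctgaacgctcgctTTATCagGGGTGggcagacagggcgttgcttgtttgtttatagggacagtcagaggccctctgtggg
Kel (chr6:41704326-41704475, minus strand): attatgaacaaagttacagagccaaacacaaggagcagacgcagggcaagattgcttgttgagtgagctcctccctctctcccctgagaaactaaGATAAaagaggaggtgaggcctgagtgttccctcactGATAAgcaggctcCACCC
Epor (chr9:21963577-21963726, minus strand): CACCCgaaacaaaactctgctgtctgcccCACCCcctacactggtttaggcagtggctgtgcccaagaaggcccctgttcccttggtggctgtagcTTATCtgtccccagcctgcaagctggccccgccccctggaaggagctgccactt
Rhd (chr4:134864386-134864535, plus strand): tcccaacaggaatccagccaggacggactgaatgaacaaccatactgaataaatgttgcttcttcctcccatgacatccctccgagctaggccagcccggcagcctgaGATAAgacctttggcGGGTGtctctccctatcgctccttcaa
Kel holds GATAA in 2 places and Epor CACCC in 2. Both strands of the 250 bases before the start were searched in every measured gene with a promoter in the table, and a gene with several starts counted once if any held the motif. GATAA was found in 14 (56.0%) of 25 red cell genes at least 2-fold lower, in 22 (39.3%) of 56 red cell genes in all and in 18.2% of 9915 measured genes. CACCC was found in 21 (84.0%), 43 (76.8%) and 61.3%, in the same order. A match describes these letters and is not evidence that a factor binds there.

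Among the transcription factors above this programme, the lowest were Klf1, with signals of 12847, 9033 and 1972 (-2.70), Gata1, with 4923, 3855 and 1422 (-1.79), and the repressor Gfi1b, with 2754, 1029 and 824 (-1.74). Zfpm1, which encodes the Gata1 partner FOG-1, had signals of 3371, 3338 and 1644 (-1.04). Klf1 and Gata1 were lower on DKO than on both other arrays, whereas Gfi1b was low on both p53-null arrays. The list as a whole was not lower: 9 of 18 members were higher and 9 lower, with a median of -0.05. Its factors shared with stem cells stayed close to WT, such as Gata2 at 1590.1, 1297 and 2024 (0.35), the adaptor Lmo2 at 10058, 9088 and 10834 (0.11) and Myb at 13847, 12201 and 14378 (0.05).

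In the membrane list, 2-fold or more separated 9 of 15 genes from WT, each downward (60.0%), and the median was -1.15. Aqp1, the red cell water channel, had signals of 11297, 9034 and 1649 (-2.78). The blood group proteins followed, with Ermap at -2.70, Kel at 2034, 4494 and 373 (-2.45), Rhd at 2606, 7095 and 495 (-2.40) and the Rh-associated glycoprotein gene Rhag at 2148, 4029.7 and 892 (-1.27). Proteins of the skeleton beneath the membrane were lower too, Ank1 (ankyrin) at 3716, 5612 and 1023 (-1.86) and Epb42 at 1199, 6526 and 408 (-1.56). The anion exchanger gene Slc4a1, at 12659, 24942 and 6613 (-0.94), just missed 2-fold. Kel, Rhd, Rhag, Epb42, Ank1 and Slc4a1 were all above WT on the p53 KO array, and Aqp1 and Ermap a little below it.

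**Figure D2:**
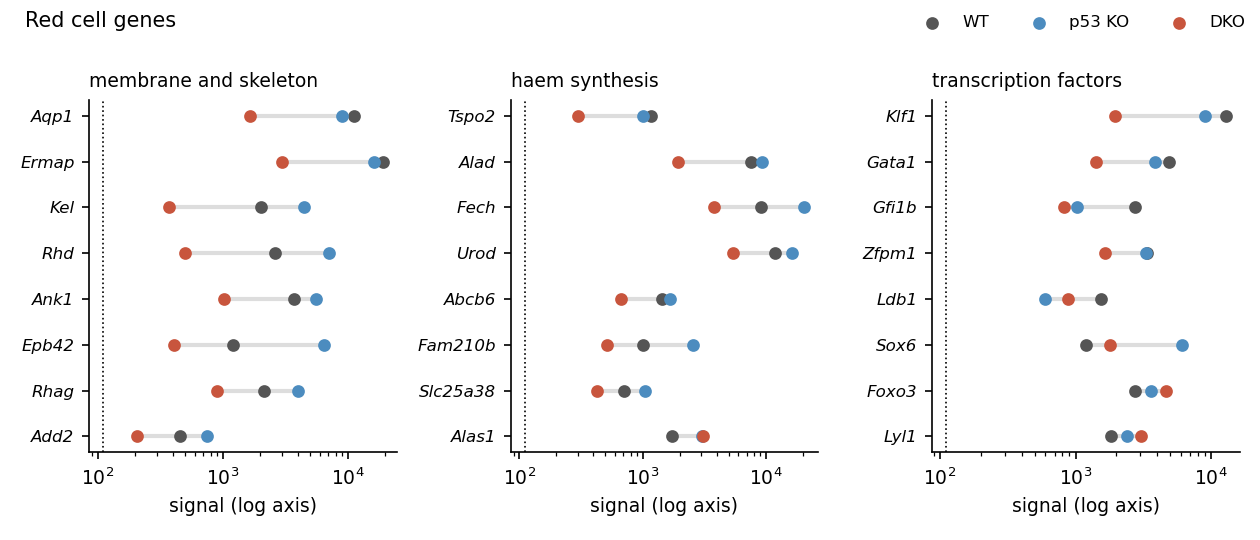
Signal (log axis) by array, WT, p53 KO or DKO, for the 8 members of 3 red cell lists with the largest differences between DKO and WT; the dotted line is the floor. The 8 membrane genes were lower on DKO than on both other arrays, while of the transcription factors Sox6, Foxo3 and Lyl1 were above WT.

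Of 15 haem synthesis genes, 14 were lower, 5 of them by 2-fold or more (33.3% of the list), and the median was -0.71. The steps from the second enzyme onward were represented by Alad at 7561, 9275 and 1925 (-1.97), Urod at 11895, 16194 and 5462 (-1.12) and Fech, which inserts the iron, at 9210.5, 20598 and 3811 (-1.27). Tspo2, the red cell member of the translocator protein family, had signals of 1178, 1016 and 298 (-1.98). The exception was Alas1, the first enzyme in cells other than red cells, which was higher at 1750.2, 3031 and 3108 (0.83), although its other probe set was at -0.30. Its red cell counterpart Alas2, named after its values were seen, had signals of 1787, 11459 and 1091 (-0.71). Globin genes gave little information, as Hbb-b2 had signals of 2818, 11429 and 2693 (-0.07), Hba-a2 had 191, 192 and 184 (-0.05), and 4 further globin genes were under the floor on both arrays.

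Of 16 iron genes, 7 were lower by 2-fold or more (43.8%), and the median was -0.58. Both transferrin receptors were among them, Tfrc at 8115, 16067 and 2999 (-1.44) and Tfr2 at 12964, 5547 and 5679 (-1.19). So were the iron exporter ferroportin, Slc40a1, at 5392, 7359 and 1575 (-1.78) and the importer Slc11a2 at 843, 747 and 359.7 (-1.23). Glrx5, which passes on iron-sulphur clusters, had signals of 11649, 15247 and 5419 (-1.10). The ferritin heavy chain gene Fth1 was less far apart at 17624, 20444 and 13483 (-0.39).

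The median of the erythropoietin list was -0.68, and 9 of 22 genes were at least 2-fold lower (40.9%). Epor, the erythropoietin receptor itself, had signals of 1345, 1068 and 420.5 (-1.68). Among red cell enzymes, Blvrb, a biliverdin reductase, was at 4979, 4462 and 760.1 (-2.71), Pklr, the red cell pyruvate kinase, at 1325, 515 and 270.2 (-2.29) and Car1, a carbonic anhydrase, at 25815, 9638 and 5778 (-2.16). Sphk1, which makes sphingosine-1-phosphate, had signals of 4098, 1239.6 and 686 (-2.58). Sphk1, Pklr, Car1 and the esterase gene Ces2g (2748, 934 and 634) were below WT on both p53-null arrays, unlike most of the membrane genes. The members at least 2-fold higher were the feedback inhibitors Socs3 at 188, 526 and 638 (1.76) and Socs2 at 329.8, 803 and 668 (1.02), which other cytokines induce as well.

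Neutrophil genes parted by the stage at which their proteins are packed. Primary granule genes, expressed first, at the promyelocyte stage, had a median of 0.91, with 12 of 14 higher and 6 at least 2-fold higher (42.9% of the list against 5.37% of all genes). Secondary and tertiary granule genes, expressed later, had a median of -0.71, with 17 of 19 lower and 2 at least 2-fold lower (10.5% against 3.19%). The gap between both lists was not tested.

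The serine protease genes of the primary granule led, with Ctsg at 5071, 10135 and 14769.9 (1.54) and Elane at 800.1, 1719 and 2308 (1.53), followed by Prtn3 at 5508, 10581 and 11025. Mpo, the myeloperoxidase gene, had signals of 14665, 27108 and 27120.2 (0.89). Cst7, a cystatin that controls such proteases, was at 489.8, 889 and 1377 (1.49). On both p53-null arrays each of these 5 genes was above WT.

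In the later granules, Camp, the cathelicidin gene, had signals of 10292, 23481 and 4509 (-1.19) and Ltf, lactoferrin, 8630.1, 21251 and 3861 (-1.16). The collagenase and gelatinase genes Mmp8 and Mmp9 were at 1969, 6711 and 1112 (-0.82) and 2933, 10173 and 1776 (-0.72). Chil3, a chitinase-like protein, was at 17234, 28089 and 8999 (-0.94). Here the p53 KO and DKO arrays lay on opposite sides of WT for each gene named.

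**Figure D3:**
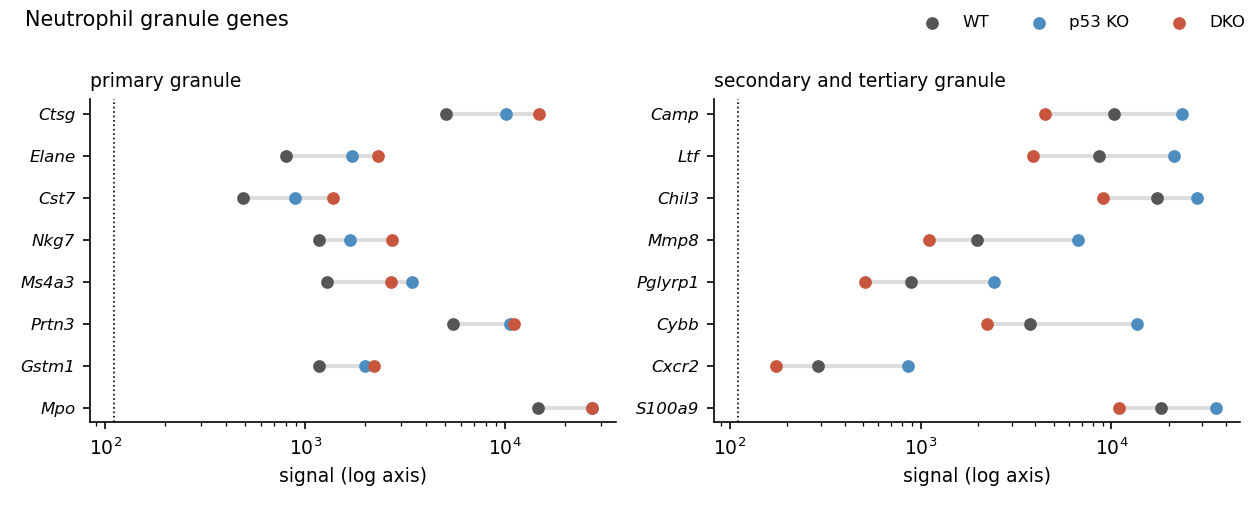
Signal (log axis) on the 3 arrays for the 8 members with the largest differences between DKO and WT in each neutrophil granule list; the dotted line is the floor. Primary granule genes were above WT on both p53-null arrays, whereas later granule genes were above WT on p53 KO and below it on DKO.

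The factors that drive these lines did not meet the list rule, with 7 of 12 higher and a median of 0.59. They did meet it, as higher, in 4 of 9 settings: quantile normalization (0.62), cyclic loess (0.59), a floor at the 75th percentile (0.74) and the mean of all probe sets (0.62). Its 4 genes at least 2-fold higher (33.3% against 5.37%) were Cebpa at 96.5, 252 and 297 (at least 1.43), Spi1, which encodes PU.1, at 368, 618 and 837 (1.18), the repressor Gfi1 at 528, 1323 and 1153 (1.13) and Irf8 at 1798, 4541 and 3816 (1.09). The later factors Cebpb and Cebpd were at -0.37 and -0.19. Monocyte, macrophage and dendritic genes were neither higher nor lower (median 0.13), with the macrophage receptor gene Csf1r at 4841, 15695 and 8826 (0.87) and the dendritic factor Zbtb46 at 347, 159 and 119 (-1.55, with another probe set at 0.19). Of 19 genes of mast cells, basophils and eosinophils, 15 were higher and the median was 0.25, which met the rule as higher but did so in only 3 of 9 other settings. The single member at least 2-fold higher (5.26%) was the mast cell protease gene Cpa3 at 613, 497 and 2019.7 (1.72). The 2 members at least 2-fold lower (10.5%) were Prg2 at 1223, 4383 and 272 (-2.17) and Epx at 413, 1589.5 and 101 (-1.90 or lower), both of which encode eosinophil granule proteins.

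Early lymphoid genes were higher on the array labelled DKO, with a median of 0.75, 29 of 34 higher and 12 at least 2-fold higher, or 35.3% against 5.37%. Dntt, the terminal transferase that adds bases at the joints of antigen receptor genes, had signals of 1996, 4980.2 and 15238 (2.93, or 7.63-fold). Ctla2a, a protease inhibitor homologue, was at 3143, 3298 and 13093 (2.06). The receptors of the lymphoid-primed progenitor followed: the TNF receptor family member Cd27 at 296, 460.4 and 928 (1.65), the interleukin 7 receptor Il7r at 334, 1386 and 1001 (1.58), the thymus homing receptor Ccr9 at 209, 457 and 531 (1.34) and Flt3 at 2387, 1492 and 4728 (0.99). Dntt, Ctla2a and Flt3 were higher on DKO than on both other arrays, whereas Il7r was highest on p53 KO.

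The genes of the committed B lineage named here were also above WT by their brightest probe sets, by different amounts. Igll1, the surrogate light chain, had signals of 136, 744 and 366 (1.43), but Ebf1, the factor that commits cells to the B line, was dim at 154, 749 and 222 (0.53), with another of its probe sets at -1.07. The kinase gene Blk was dim too, at 130.4, 651 and 193 (0.57). On p53 KO each of these 3 was above its DKO value, as Il7r was. The wider B and plasma cell list was neither higher nor lower (median 0.20), except after cyclic loess, where it was higher (0.29).

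The median of lymphoid transcription factors was 0.44, and 8 of 25 were at least 2-fold higher (32%). Satb1, a chromatin organiser, was at 1688, 1913 and 3926 (1.22), Sox4 at 4804, 4629.6 and 10052 (1.07), Mef2c at 2438, 3323 and 4927 (1.01) and the Ikaros relative Ikzf2 at 1505, 1735 and 3309.7 (1.14). Ikaros itself ran the other way, Ikzf1 at 9128, 8603 and 6424 (-0.51), and so did Bcl11a at 7013, 3608 and 5548 (-0.34). The T line factor Bcl11b was under the floor on WT and at 349.6 on DKO (at least 1.66).

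The Gimap genes, small GTPases of lymphocyte survival, sit in a cluster in the genome, and all 8 measured members were higher, with a median of 0.75 and 3 at least 2-fold (37.5%). Gimap9 had signals of 169.5, 200.4 and 395 (1.22), Gimap1 406, 661 and 857 (1.08) and Gimap4 209.6, 697 and 436 (1.06). Of the 8 genes, 5 lay in the dimmest range, where the median of all genes was 0.24, and a floor at the 75th percentile left too few for a call. Mature T cell genes were dim as well: 9 of 19 on the array were measured, Lat at 524, 570.3 and 840.5 (0.68) and Zap70 at 622, 481 and 762 (0.29) among them, and their summed signal was 2157, 2777 and 3299. Thy1, also a marker of early progenitors, was at 94.8, 275 and 346 (at least 1.65).

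The list of stem cell surface and identity genes was higher, with a median of 0.59, 35 of 42 higher and 11 at least 2-fold higher (26.2% against 5.37%). In the other direction 2 were at least 2-fold lower (4.76% against 3.19%). At the surface, Cd34, a sialomucin that is low on the most primitive mouse stem cells, had signals of 2230.3, 2442 and 6633 (1.57). The SLAM family receptors parted: Cd48, which marks progenitors more than stem cells, was at 1070.2, 1214 and 2404 (1.17) and Cd244a at 272, 636 and 1021 (1.91), while the stem cell marker Slamf1 was at 475, 549 and 579 (0.29). The list thus includes markers of progenitors, and the part of stem cells and of progenitors in its call was not tested. Fhl1, a LIM domain protein, had signals of 533, 1307 and 1867 (1.81) and Adgrg1, an adhesion receptor of stem cells, 1153, 1544 and 2774 (1.27). Necdin, the growth suppressor encoded by Ndn, was above WT on both p53-null arrays at 740.3, 1606 and 1691 (1.19).

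Homeobox genes that sustain self-renewal were higher on DKO than on both other arrays, Hoxa9 at 6973, 5711 and 11734 (0.75) and its cofactor Meis1 at 2169, 2373 and 4505 (1.05). Their list had a median of 0.67 with 12 of 15 higher, but a floor at the 75th percentile, which leaves 8 genes, made it 0.14. Hoxc6 (at least 1.83) rests on 1 probe set, since another was at -0.40. ETS factors, the family of Mef, included Erg at 1368, 2094 and 3262 (1.25), Fli1 at 1342, 2128 and 2922 (1.12) and Elk3 at 988, 1241 and 2228 (1.17). Their median was 0.45, or 0.28 after quantile normalization, where the list no longer met the rule.

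**Figure D4:**
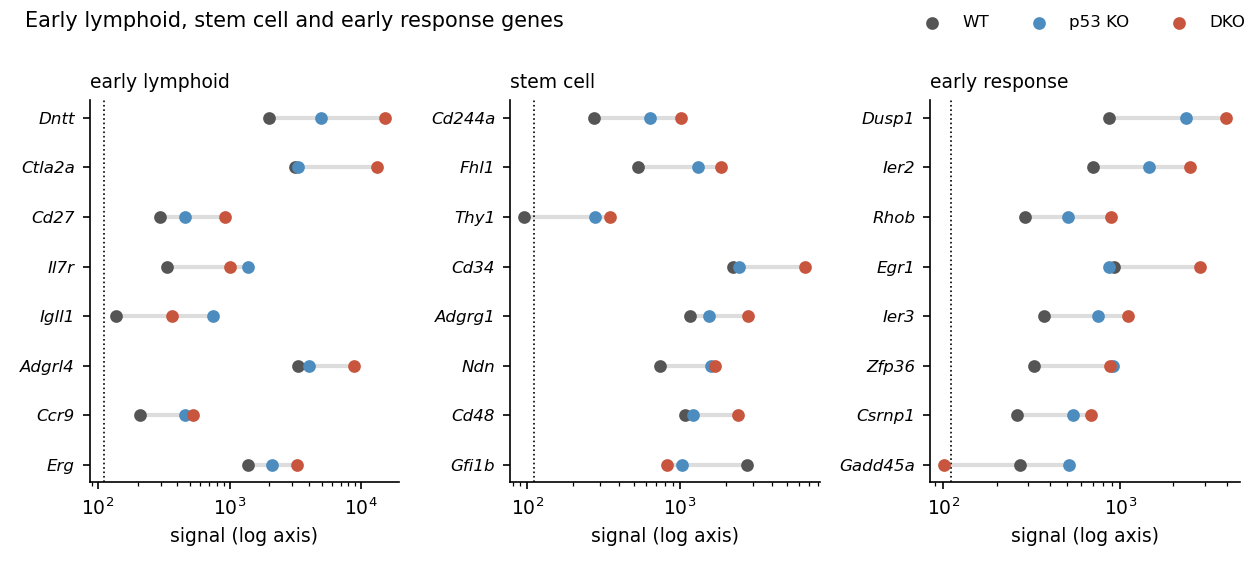
Signal (log axis) on the 3 arrays for the 8 members with the largest differences between DKO and WT in the early lymphoid, stem cell and early response lists; the dotted line is the floor. Gfi1b and Gadd45a were lower on DKO than on WT, and the other genes drawn were higher.

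The median of cytokine and growth factor receptors was 0.36. Of 32 measured, 6 were at least 2-fold higher (18.8%) and 1, Epor, lower by as much (3.12%). Interleukin receptors accounted for most of the former, Il7r beside Il4ra at 128, 206 and 357 (1.48, with another probe set at 0.40), Il15ra at 143, 41 and 344 (1.26) and Il1r1 at 294, 261 and 591 (1.01). Pdgfrb, the platelet-derived growth factor receptor beta, more often used as a stromal marker, had signals of 558, 417 and 2136 (1.94). The stroma and endothelium list as a whole had 2 of 20 measured genes at least 2-fold higher (10%) and met the rule as higher, though in only 3 of 9 other settings, with summed signals of 7825, 14818 and 10834, and the part of such cells in this difference was not tested. The receptors Kit and Ifngr1 stayed near WT, Ifngr1 at 2526, 1470.0 and 1953 (-0.37).

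TGF-beta and BMP signalling, which is known to hold stem cells in quiescence, had a median of 0.47, with 20 of 26 genes higher and 4 at least 2-fold (15.4% against 5.37%). The receptors Acvr1b and Bmpr2 had signals of 1147, 1449.9 and 3028 (1.40, with another probe set at 0.47) and 1304, 2454 and 2657 (1.03). The signal transducer Smad1 was at 965, 1369 and 2174 (1.17), and Ltbp3, which binds latent TGF-beta in the matrix, at 3284, 3542 and 8413 (1.36, with another probe set at 0.37). The coreceptor Tgfbr3 ran the other way at 5317, 3549.5 and 2772 (-0.94).

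Early response genes, which cells switch on within minutes of a stimulus, were in part high on DKO. Fos had signals of 1384, 5889.6 and 14202 (3.36, or 10.3-fold), Jun 180.0, 369 and 930.0 (2.37), and Junb 139, 185 and 324 (1.22). Both p53-null arrays were above WT for these AP-1 genes, and DKO was the highest. Yet the AP-1 and Atf list as a whole did not meet the rule, with a median of 0.21 and 5 of 23 genes at least 2-fold higher (21.7%). It did meet it, as higher, in 4 of 9 settings: quantile normalization (0.30), cyclic loess (0.29), a floor at the 25th percentile (0.41) and the pseudocount (0.40).

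Beyond AP-1, 7 of 33 early genes were at least 2-fold higher (21.2%) and 1 lower by as much (3.03%). Their median was 0.36, and with unique probe sets, at 0.33, the list no longer met the rule. They included the zinc finger factor Egr1 at 925, 860.4 and 2830.2 (1.61), Ier2 at 704, 1458 and 2489 (1.82), Ier3 at 369, 749 and 1100.2 (1.57) and Rhob, a short-lived GTPase, at 288, 503 and 884 (1.62). Egr1 was near WT on p53 KO. Gadd45a, a growth arrest gene, was the exception, at 272, 514 and 101 (-1.30 or lower). Myc, also an early gene, was close to WT on DKO at 3532, 1624 and 3137 (-0.17) and lower on p53 KO.

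The feedback brakes that follow these genes were partly higher. MAP kinase phosphatase, Sprouty and Spred genes had a median of 0.53, and 2 of 17 were at least 2-fold higher (11.8% against 5.37%). Their list met the rule as higher, and did so in 6 of 9 other settings. The list of Socs and cytokine feedback genes did not meet it (median 0.03, 11 of 19 higher). Dusp1, the phosphatase that ends MAP kinase signals, had signals of 869, 2351 and 3951 (2.18), and Zfp36, which destabilises early messages, 324, 912 and 871 (1.43). Dusp5 reached 266 on DKO from under the floor on WT (at least 1.27), and Dusp6 and Spry2 were at 0.83 and 0.81. Rgs1 and Rgs2, which shorten G-protein signals, were at 544, 407 and 1959 (1.85) and 3089, 6823 and 6225 (1.01), while Rgs10 was lower at 2751, 1419 and 1056 (-1.38). The Rgs list had 2 of 12 genes at least 2-fold higher (16.7%) and 1 lower by as much (8.33%). Its median of 0.41 met the rule as higher, but not after quantile normalization (0.23). The median of the MAP kinases and their activators themselves was 0.06, and 1 of 32 was higher by 2-fold or more (3.12%).

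Early genes are known for promoter elements that answer to serum response factor, the CArG box, and to cAMP, the element TGACGTCA. The 150 bases before the start of the pair of at least 2-fold higher genes in which either was found are shown from the same source, with the element in capitals.
Dusp1 (chr17:26508473-26508622, minus strand): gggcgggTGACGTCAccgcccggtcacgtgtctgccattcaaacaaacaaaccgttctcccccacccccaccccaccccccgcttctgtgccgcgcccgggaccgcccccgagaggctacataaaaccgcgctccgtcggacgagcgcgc
Zfp36 (chr7:28379229-28379378, minus strand): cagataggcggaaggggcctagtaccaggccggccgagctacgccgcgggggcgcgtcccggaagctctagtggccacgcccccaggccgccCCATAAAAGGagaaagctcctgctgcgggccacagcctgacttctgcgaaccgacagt
Dusp1 holds the cAMP element and Zfp36 a CArG box. Across the promoters of the 10 early genes at least 2-fold higher that have one in the table, each element was thus found once in the 250 bases searched. Of all 9915 measured genes with a promoter in the table, the CArG box was found in 1.33% and the cAMP element in 2.86%. The promoters of Fos and Junb, among others, held no match in this window, which says nothing about their control.

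Adhesion genes were higher on the array labelled DKO. The median of integrins, selectins and niche adhesion genes was 0.54, and 5 of 28 were at least 2-fold higher (17.9%). Icam1, a ligand for leukocyte integrins, had signals of 386, 614 and 1046 (1.44), the integrin subunit gene Itgb5 683, 1206 and 1795 (1.39) and Selp, P-selectin, 269, 591 and 740.2 (1.46). Selp, Itga2b (0.96) and Itgb3 (at least 0.91) are also megakaryocyte genes, and that list had a median of 0.52 with 20 of 22 higher and a summed signal of 28636, 42148 and 40612. Cd44 differed little, at -0.10, and the probe sets of Cd47 lay on both sides of 0, from -0.55 to 0.66.

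The chemokine list as a whole was neither higher nor lower (median 0.02). It holds 4 measured receptor genes for sphingosine-1-phosphate, a lipid that guides the exit of cells from marrow, which were singled out after their values were seen. S1pr3 was at 271, 393 and 1083, with another probe set at 0.63, and S1pr1 at 114, 217 and 281 (1.31). S1pr2 was at 249, 290.1 and 439 (0.82) and S1pr4 close to WT at 1274, 1870.3 and 1455 (0.19). Cxcr4, the main retention receptor of the marrow, was close to WT at 1664, 2929.7 and 1588 (-0.07). The chemokine genes Ccl3 and Ccl9 were at 91.1, 217 and 454 (at least 2.04) and 1023, 2167 and 2673 (1.39), and the cannabinoid receptor gene Cnr2 was lower at 1320.3, 731 and 367 (-1.85).

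Genes of cell growth and mitochondria were lower by small steps shared across many members. The mitochondrial ribosomal proteins, which translate the respiratory chain subunits encoded by mitochondrial DNA, had 66 of 74 members lower, with a median of -0.44, or -0.47 after cyclic loess. Of these, 5 were at least 2-fold lower (6.76% against 3.19%), such as Mrpl55 at 435, 212 and 141 (-1.62), Mrpl22 at 5261, 2475 and 2558 (-1.04) and Mrps18b at 1889, 612 and 931 (-1.02). Most members lay within 2-fold of WT.

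Protein import into mitochondria had a median of -0.43, with the translocase genes Timm17a at 2709, 1390.0 and 1280.2 (-1.08) and Timm8b at 988, 756 and 444 (-1.15). Of 36 genes of respiratory complex I, which oxidises NADH, 34 were lower, and the median was -0.37. Complexes II to V had a median of -0.32 and 5 of 49 at least 2-fold lower (10.2%). Among these were the ATP synthase subunit gene Atp5g1 at 2184, 944 and 791 (-1.46) and the iron-sulphur protein of complex III, Uqcrfs1, at 7140.5, 4546 and 3064 (-1.22). After cyclic loess the median of complexes II to V was -0.20 and the list no longer met the rule, whereas complex I, at -0.27, did. Of the 49 genes of complexes II to V, 35 lay above 2000 on DKO or WT, where the median of all genes was -0.11.

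In the cytosol, all 20 aminoacyl-tRNA synthetase genes, which load amino acids on tRNA, were lower, with a median of -0.42 and none by 2-fold. Gars, the glycine enzyme, had signals of 4671, 3214 and 2925 (-0.68) and Lars, the leucine enzyme, 4968, 3459 and 3263 (-0.61). Nuclear pore genes had 18 of 20 lower (median -0.49), for example Nup93, a scaffold subunit, at 4191, 2777 and 2751 (-0.61). The nucleolar list, whose genes make and process ribosomal RNA, had a median of -0.33 with 52 of 66 lower, and Rrp9 at 958, 266 and 356 (-1.43) was its lowest member. Proteasome subunit genes had a median of -0.32 with 38 of 43 lower. The nucleolar list no longer met the rule with the mean of all probe sets, at -0.249, nor the proteasome list after cyclic loess, at -0.247. By contrast, cytosolic ribosomal proteins were near the background for bright genes, with a median of -0.12, and splicing factors were at -0.08.

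Most growth lists were lower on the p53 KO array too, measured against the same WT array. Medians there were -0.66 for mitochondrial ribosomal proteins, -0.53 for complex I, -0.49 for aminoacyl-tRNA synthetases, -0.39 for nuclear pore genes and -0.85 for nucleolar factors. Both comparisons share the 1 WT array, so a property of that sample cannot be told apart from what both knockouts share.

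**Figure D5:**
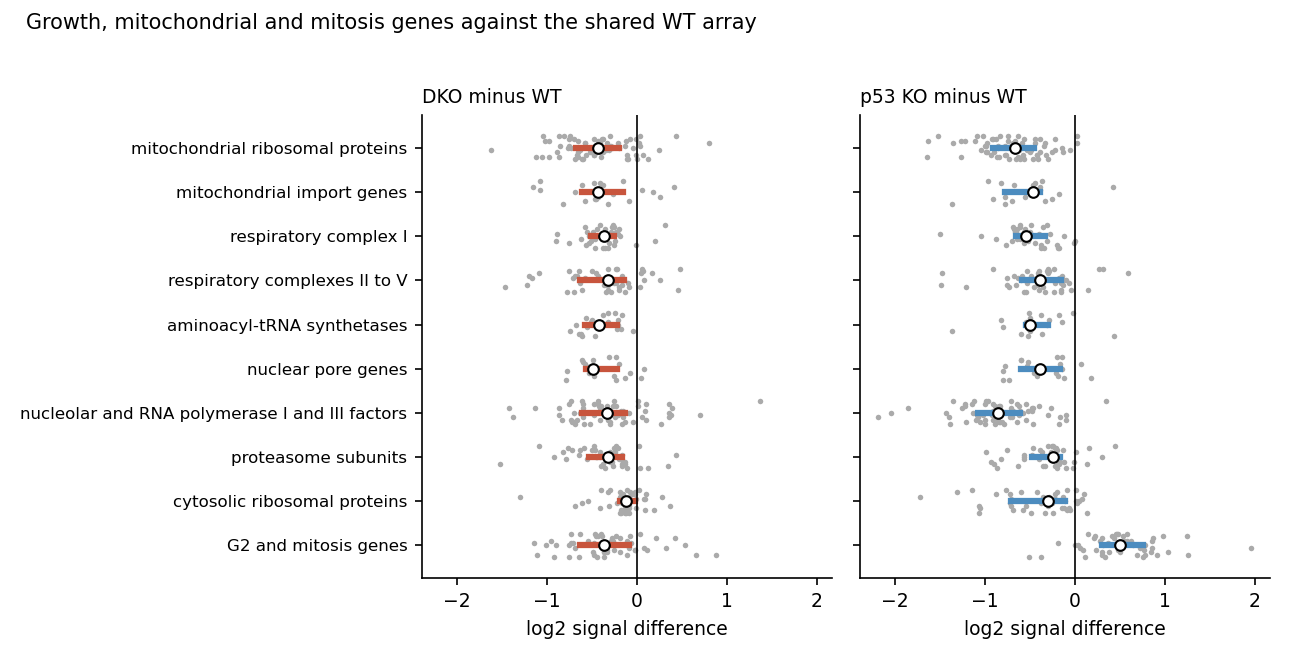
Log2 signal difference from the WT array for 10 growth, mitochondrial and mitosis lists, on DKO (left) and p53 KO (right). Grey points are genes, bars run from the lower to the upper quartile and open circles are medians; both panels use the same WT array, and mitosis genes had medians of -0.36 on DKO and 0.50 on p53 KO.

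Genes of G2 and mitosis were lower on DKO, with 44 of 53 below WT, 3 of them by 2-fold or more (5.66% of the list against 3.19%), and a median of -0.36. The 3 were Cenpa, the histone of the centromere, at 4854, 4257 and 2205 (-1.14), cyclin F, Ccnf, at 1173, 2021 and 544 (-1.11), and Ube2c, which feeds the anaphase-promoting complex, at 1589, 2739 and 788 (-1.01). The mitotic kinase Plk1 was at 1279.7, 1287 and 688 (-0.90) and the proliferation marker Mki67 at 17134, 24396 and 13655 (-0.33). Kif23, a kinesin of cell division, ran against them at 1401, 3359.6 and 2567 (0.87). On p53 KO the same list had a median of 0.50, above WT.

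Earlier in the cycle, DNA replication genes had a median of -0.26, close to the limit of the rule, which they missed after quantile normalization (-0.23), with the pseudocount (-0.24) and with the mean of all probe sets (-0.25). Of 49 genes, 2 were at least 2-fold lower (4.08% against 3.19%), and 36 lay above 2000, where the median of all genes was -0.11. The licensing inhibitor geminin, Gmnn, was at 12131, 15701 and 5601 (-1.12) and the origin protein Orc1 at 860.3, 863 and 408 (-1.08, with another probe set at 0.23). Cyclin E1, Ccne1, of the G1 cyclin and CDK list, was at 7112, 5934 and 1923 (-1.89). That list did not meet the rule (median -0.22, 8 of 22 higher), except as lower after median subtraction (-0.31). In it, 2 genes were at least 2-fold lower (9.09%). Nucleotide and one-carbon genes held larger single differences. Of 35, 2 were at least 2-fold lower (5.71%) and 1 was higher by as much (2.86%). Their median of -0.35 met the rule as lower, but the list missed it after quantile normalization (-0.30) and cyclic loess (-0.32). Nme1, which balances nucleoside triphosphates, had signals of 20531, 3852 and 4276 (-2.26), and Mthfd1, a folate enzyme, 19067, 8285 and 7688 (-1.31). Both were low on both p53-null arrays, whereas Shmt1, a serine and glycine enzyme, was higher on DKO at 1082, 1353 and 2489 (1.20).

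The list of pentose phosphate pathway, antioxidant and glutathione genes was lower, 6 of 44 by 2-fold or more (13.6%). Its median was -0.29, or -0.22 after cyclic loess, where the list no longer met the rule. Gclm, part of the enzyme that starts glutathione synthesis, was at 5511, 4958 and 2154 (-1.36), and Gpx4, which repairs lipid peroxides, at 9422, 7921 and 4396 (-1.10). Nfe2l2, which encodes the regulator of many such genes, NRF2, had signals of 4731, 2952 and 2523 (-0.91). Blvrb and Prdx2 (-0.86, with another probe set at 0.74), which are also red cell genes, were in this list. The metallothionein genes Mt1 and Mt2, which bind zinc and copper, were low on both p53-null arrays at 3873, 917 and 894 (-2.11) and 5473, 795 and 1041 (-2.39).

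Glycolysis and hypoxia genes leaned the other way, with 5 of 36 at least 2-fold higher (13.9%), though the list did not meet the rule (median 0.23). It did meet it, as higher, under both alternative probe set choices, unique ones (0.30) and the mean of all (0.26). Hif1a, the oxygen-regulated factor, had signals of 1603, 2958 and 3396 (1.08), the glucose transporter Slc2a1 767, 1273 and 1723 (1.17), pyruvate kinase Pkm 1819, 4502 and 4505 (1.31) and Egln3, a prolyl hydroxylase that Hif1a induces, 507, 781 and 1145 (1.17). The housekeeping enzymes Gapdh and Pgk1 were near WT at -0.07 and 0.10. Asns, asparagine synthetase and a target of the stress factor Atf4, was 5.33-fold lower at 7258, 3082 and 1363. Its list of amino acid synthesis and Atf4 genes did not meet the rule (median -0.10). Of the 24 genes there, 1, Asns, was at least 2-fold lower (4.17%). In the other direction 2 were higher by as much (8.33%), among them Atf5 (1.26).

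Known p53 target genes parted, with 7 of 33 higher by 2-fold or more (21.2% against 5.37%), 2 lower by as much (6.06% against 3.19%) and a median of 0.15. Zmat3 and Ccng1 were below WT on both p53-null arrays, at 736, 203 and 151 (-2.28) and 8331, 5006 and 5001 (-0.74). Cdkn1a, the cell cycle inhibitor p21, was at 291, 569 and 648 (1.15, with another probe set at 0.25), and Sesn1, a stress sensor, at 4208, 6161 and 10152 (1.27). In the Bcl2 family, 2 of 18 genes were at least 2-fold higher (11.1%) and 1 was lower by as much (5.56%). The list did not meet the rule (median 0.24), except as higher with a floor at the 25th percentile (0.29) and with the pseudocount (0.34). The survival gene Bcl2 had signals of 1052, 1011 and 2394 (1.19), and Bok, another member, was at 1.18. The death gene Bcl2l11, which encodes Bim, was at 4042, 3595 and 1870.3 (-1.11).

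Among chromatin genes, 2 DNA methyltransferase genes were higher on DKO than on both other arrays, Dnmt3a at 523, 589 and 1123 (1.10) and Dnmt3b at 4056, 3469 and 7053 (0.80). Mbd2, which reads the methyl mark, was lower at 3580.1, 3786 and 1602 (-1.16). The list of DNA methylation enzymes and readers did not meet the rule (median 0.33, 11 of 17 higher), except as higher with a floor at the 75th percentile (0.34). Of its genes, 1 was at least 2-fold higher (5.88%) and 2 were lower by as much (11.8%). Polycomb and trithorax genes were at 0.10, interferon response genes at 0.07, MHC class I genes at 0.03 and end-joining and checkpoint genes at -0.07, beside an all-gene median of 0.08. The other repair list, homologous recombination and Fanconi genes, was lower, with a median of -0.32 and 23 of 30 lower. Of these 30 genes, 2 were at least 2-fold lower (6.67% against 3.19%). The list kept its call in 8 of 9 other settings, but missed the rule with the mean of all probe sets (-0.17).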

How the data were processed

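The authors deposited linear signal intensities for 45101 probe sets on 3 arrays, made with GCOS and MAS5 per the submitters' processing notes, of unstated version. These intensities carry global scaling, since their 2% trimmed mean was 500.003 on each array. Gene names came from the platform annotation, updated through the RefSeq table (GRCm38.p6) for 34754 probe sets; 34958 probe sets carried 1 gene, 932 several. The floor was the median of all signals. A gene counted as measured on the WT or DKO array, and measurement on any of the 3 arrays was added as an alternative after the data were seen. The members, lists and rules were chosen with earlier results of these data known. A further gene list is not reported here. Named are the 20 highest and 20 lowest genes reaching the 75th percentile of signals (448), up to 8 members of a list with the largest differences, its 4 brightest, and all measured members of lists with 12 or fewer. Alternatives were quantile normalization, median subtraction, cyclic loess (limma 3.58.1, R 4.3.3), floors at the 25th and 75th percentiles, a pseudocount of 32, the mean of all probe sets, unique probe sets and 1.5-fold and 3-fold thresholds. Calculations used Python 3.11.15 with pandas 2.3.3 and numpy 2.4.6 and were tested on simulated data.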

Additional observations from a re-analysis of the deposited data

How the results depend on the processing

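The count of genes at least 2-fold higher (657) was 416 after cyclic loess, 1861 and 202 with the floor at the 25th and 75th percentile, and 1441 with a pseudocount of 32 and no floor. At thresholds of 1.5-fold and 3-fold it was 2157 and 95. The count at least 2-fold lower (390) was 755 and 233 with those floors, 638 with the pseudocount, and 1199 and 106 at those thresholds. Higher lists and families numbered 35, but 17 after quantile normalization and 21 after median subtraction, cyclic loess or the higher floor. Of 345 named genes past 2-fold, 160 were past it in every setting that gave a value. Restricted to unique probe sets, the sign turned for Ccdc86 (0.26), Cds2 (0.43), Hoxc6 (-0.40), Hspa14 (-0.52), Mrpl17 (0.066), Polr3d (-0.31), Rnf157 (-0.24), Sgsm1 (-0.30), Uqcrq (0.36) and Wipi1 (0.13). It turned for Uqcrq (0.046) with the mean of all probe sets too, and after cyclic loess for the NK cell list (-0.0099). The list of genes of other organs went from 0.46 to -1.18 with the floor at the 75th percentile, which left too few for a call. Of the 69 uncalled lists and families, 23 were called in some setting, and carbonic anhydrases went from 0.15 to -0.33, called lower, after cyclic loess. The cause was not tested. No paired analysis was possible because each group holds 1 array. With 1 array per group, no replicate could be left out, and signals near the floor limit what the dim lists show.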

Other observations

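Membrane transporter families met no list rule. Of 208 solute carrier genes, 14 were higher by 2-fold or more and 10 lower by as much, shares of 6.73% and 4.81% that lie close to the 5.37% and 3.19% of all measured genes. The peptide transporter Slc15a2 had signals of 1625, 2784 and 394 (-2.04, with another probe set at 0.69), the glutamine transporter Slc38a5 1646, 2546 and 509 (-1.69) and the neutral amino acid transporter Slc43a2 558, 1024 and 1562 (1.49). Among 35 ABC transporters, 2 were higher (5.71%) and 5 lower (14.3%) by 2-fold or more, and with a floor at the 75th percentile the family was lower (-0.35). The drug efflux pump gene Abcb1b was higher at 549, 467 and 1915 (1.80, with another probe set at 0.063) and its neighbour in the family, the phospholipid pump Abcb4, lower at 9781, 5239 and 2218 (-2.14). Septins and myosins of the cell skeleton did not meet the rule (median 0.22, 26 of 38 higher), except as higher with the mean of all probe sets (0.31). Of these genes, 1 was at least 2-fold higher (2.63%) and 3 were lower by as much (7.89%). Among 11 tubulins, 1 was at least 2-fold lower (9.09%), and their median was -0.16. Those furthest below WT were Myh10, nonmuscle myosin IIB, at 7484, 3545 and 1369 (-2.45) and Septin8 at 3642, 1276 and 732 (-2.31, with another at -0.60). The beta tubulin Tubb2a was at 1465, 1629 and 461 (-1.67). Myh10 and Septin8 were below WT on both p53-null arrays, whereas Tubb2a was below it on DKO alone of the pair.

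A few genes of the germ line lay far from WT. Prm1, a sperm protamine, had signals of 3.48, 2.29 and 1718 (at least 3.96), and the other 2 of its 3 probe sets gave 3.94 and 1.75. Msh5 and Ccnb1ip1, which act in meiotic crossing over, were at 15.1, 303 and 811 (at least 2.88) and 2.51, 10.8 and 648 (at least 2.55), while the meiotic cohesin gene Rec8 was lower at 1189, 182 and 434 (-1.45). Their list had 4 of 22 measured genes higher by 2-fold or more and 2 lower by as much (18.2% and 9.09%, against 5.37% and 3.19%). Of the 22, 8 were bounds, as 15 reached the floor on WT and 21 on DKO. Prm1, Msh5 and Ccnb1ip1 counted as measured only through the DKO array, where they are high, so the share of 18.2% partly follows from that filter. The list's median of 0.31 met the rule as higher but did so in only 2 of 9 other settings. Other single genes that stood out were Sik1, a kinase induced by cAMP, at 54.4, 214 and 516 (at least 2.23, with another probe set at 0.35), Emp1, a membrane protein, at 248, 366 and 1182 (2.25), and Crip2, a LIM domain protein, at 972, 488 and 115 (-3.08).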
